A study of Mus musculus with 9 samples.

Results

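The 10 annotated gene models Gm10717, Gm10718, Gm10719, Gm10721, Gm10722, Gm10800, Gm10801, Gm11168, Gm21738 and Gm26870 were examined as a set of similar repeat sequence. They were taken by name from the deposited comparison of P-Por-Os with control, where all 10 had a row among 160, out of 217 genes in all the deposited tables. The models were chosen by their values in that same comparison, since each of its rows was selected on an authors' log2 fold of at least 1 and a p under 0.05. Their difference between the groups is therefore described here without a test. The cells were Hepa1-6, a mouse hepatocarcinoma line of wild-type genotype per the labels, grown in DMEM with serum. The 3 control libraries came from untreated cells, given PBS per the series description, and the 3 P-Por-Os libraries from cells given P-Por-Os at 25.57 µg/mL. A further group of 3, given P-Por-Os at the same dose with ultrasound, entered tables in which none of the 10 models has a row. The exposure time is not given in the sources used here. Nor is it stated that replicate libraries were made from separate cultures, so their spread may be technical.

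Satellite DNA is made of short units repeated head to tail over long stretches of a chromosome. In the mouse the major satellite, with a unit of 234 bases, lies beside the centromeres in compact heterochromatin, where histone methylation and HP1 proteins keep transcription low. Transcripts of satellite repeats are nevertheless known from dividing, stressed and cancer cells. Gene prediction has also placed models on the few blocks of such repeats in the assembled chromosome arms, and reads from any copy of the repeat can resemble these models.

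The repeat itself is shown here as read from GENCODE M21 transcripts on GRCm38, since shared sequence decides how far the values of the models can be told apart. Each stretch lies within a single exon, and all are written in the same direction of the repeat. Capitals mark a stretch of 42 bases held by all 10 models on either strand. The Gm26870 stretch, chr9:3034982-3035215, is written on the plus strand, opposite to that model, and is a full unit of 234 bases. The others are written on the strand of their own model, at chr9:3024412-3024566 for Gm10718 (plus), chr14:19417133-19417366 for Gm21738 (minus), chr2:98667233-98667301 for the exon at the start of Gm10800 (minus), chr2:98666807-98667040 in the longest exon of Gm10800 (minus) and chr2:98662289-98662522 for Gm10801 (plus).
Gm26870, opposite strand: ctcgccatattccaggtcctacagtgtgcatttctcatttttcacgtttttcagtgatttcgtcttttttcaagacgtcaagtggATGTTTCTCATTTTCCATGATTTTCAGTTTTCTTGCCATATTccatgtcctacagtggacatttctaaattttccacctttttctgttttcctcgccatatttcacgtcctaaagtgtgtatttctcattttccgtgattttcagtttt
Gm10718: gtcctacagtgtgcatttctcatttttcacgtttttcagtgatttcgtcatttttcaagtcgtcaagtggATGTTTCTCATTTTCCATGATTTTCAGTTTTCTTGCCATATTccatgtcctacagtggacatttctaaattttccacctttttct
Gm21738: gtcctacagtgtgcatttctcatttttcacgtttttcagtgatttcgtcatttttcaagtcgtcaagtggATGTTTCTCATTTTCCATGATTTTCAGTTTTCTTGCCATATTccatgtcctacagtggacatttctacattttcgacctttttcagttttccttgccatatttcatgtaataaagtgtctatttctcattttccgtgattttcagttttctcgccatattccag
Gm10800, exon at the start: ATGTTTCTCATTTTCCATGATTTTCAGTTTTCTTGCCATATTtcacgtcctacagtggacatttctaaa
Gm10800, longest exon: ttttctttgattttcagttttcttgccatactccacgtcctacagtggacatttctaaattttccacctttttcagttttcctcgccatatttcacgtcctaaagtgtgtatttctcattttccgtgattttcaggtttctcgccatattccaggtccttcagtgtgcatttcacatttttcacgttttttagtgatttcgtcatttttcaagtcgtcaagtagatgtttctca
Gm10801: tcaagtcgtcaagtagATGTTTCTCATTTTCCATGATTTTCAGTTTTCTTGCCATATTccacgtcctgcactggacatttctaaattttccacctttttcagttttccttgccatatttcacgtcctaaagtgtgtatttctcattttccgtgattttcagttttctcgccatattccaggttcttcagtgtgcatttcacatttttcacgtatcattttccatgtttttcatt

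Aligned to the Gm26870 unit read as a circle, the Gm10718 stretch was equal at 98.7% of 155 aligned bases and the Gm21738 stretch at 95.7% of 234. The exon at the start of Gm10800 was equal at 97.1% of 69 bases, and its longest exon at 94.9% of 234. The Gm10801 stretch was equal at 94.3% of 229 aligned bases. The printed stretches of chromosomes 2, 9 and 14 were thus alike over most of their bases. All but the longest exon of Gm10800 were picked for holding the capitalised stretch, which is equal by that choice. Each was compared at the best rotation of the unit. The capitalised stretch occurred in 11 of 55341 gene models of the annotation, which are the 10 described here and 1 other.

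Most of the transcripts also matched themselves at a fixed distance. With the share of bases equal to the base a set distance further on computed for every distance from 20 to 400, the best distance was 234 bases in 18 of 25 transcripts and 237 in 5 more. Gm10800 had its best match at 225 bases and Gm10801 at 400, in a transcript of 504 bases, so that few bases were compared. At 234 bases they were equal at 43.0% and 36.7%, against medians of 30.7% and 31.5% over all distances. Equality at 234 bases was 95.9% in transcript 202 of Gm26870, against a median of 30.8% over all distances, and 62.4% in Gm21738, the lowest of the 18. A shorter step showed at 58 bases, with 60.4% in that Gm26870 transcript, 57.6% in Gm10718 and 51.2% in Gm10800. These distances run along transcripts with introns removed, and an intron can shift or break the step. The step along the chromosome was not measured. Within transcripts, the label of satellite-like models fits, as a tandem repeat, the 8 models with a transcript best matched at 234 bases. For Gm10800 and Gm10801 it rests on the likeness of their stretches to the Gm26870 unit. No satellite reference sequence was at hand, so the models are not given the name of a known satellite.

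**Figure D1:**
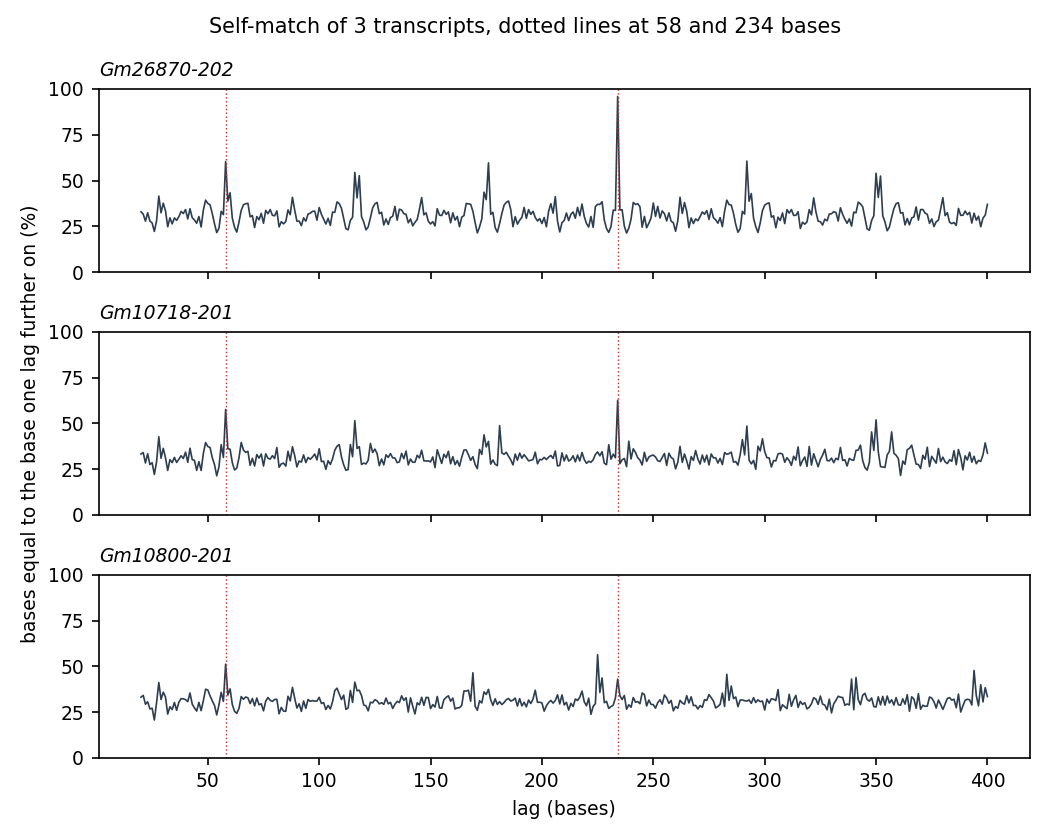
The share of bases equal to the base a given distance (lag, in bases) further along is plotted for 3 transcripts. Introns are removed, and dotted lines stand at 58 and 234 bases. Gm26870 (transcript 202) reaches 95.9% at 234 bases and Gm10718 62.6%, while Gm10800 has its peak at 225 bases.

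The models lie in 3 places. On chromosome 9, 7 of them share a stretch of 38.0 kb, from 3000282 to 3038313. Gm26870, a lincRNA on the minus strand, spans all of it, and the 6 others lie on the plus strand within that span. On chromosome 2, Gm10801 lies from 98662237 to 98664083 on the plus strand and Gm10800 from 98666547 to 98667301 on the minus strand. Gm21738 lies alone on chromosome 14, from 19415857 to 19418930 on the minus strand. GENCODE calls all but Gm26870 protein-coding. Yet of 84 introns in the 25 transcripts of all 10 models, 28 are shorter than 20 bases, none of them in Gm26870. The shortest, in Gm10800, is 1 base. All transcript lengths are multiples of 3. The capitalised stretch ran in the direction of the model in 9 of 10, and in the opposite direction in Gm26870. Gm26870 is therefore the only one of the 10 whose annotated strand is the other strand of the repeat.

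Overlap on opposite strands affects 4 of the plus-strand models. Of their exonic bases, 41.1% in Gm10721, 22.8% in Gm10718, 12.4% in Gm11168 and 12.1% in Gm10719 coincide with exons of Gm26870, and these make up 32.8% of its exons. The libraries were stranded per the labels, but the strand setting used in counting is not given in the sources used here, so reads in these parts cannot be assigned to a strand with certainty.

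**Figure D2:**
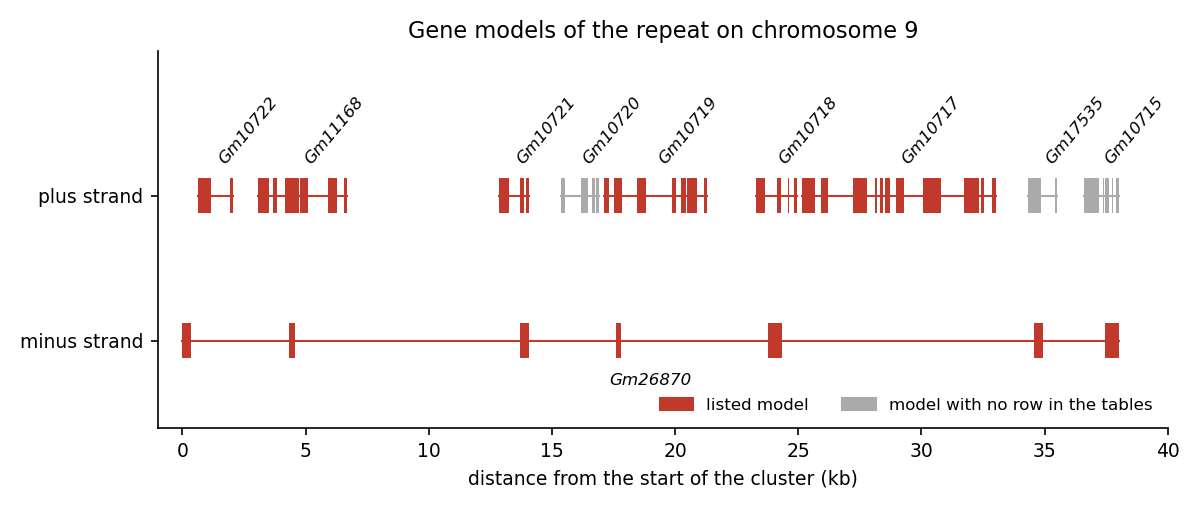
Exons (boxes) and spans (lines) of the repeat models on chromosome 9 are drawn by strand against distance in kb from the start of the cluster. Gm26870 spans 38.0 kb on the minus strand, and 3 plus-strand models in grey hold the same words but have no row in the deposited tables.

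Shared sequence was measured as the share of the 31-base words of a model that occur, on either strand, in other models of the 10. It was 89.3% for Gm10721, 84.8% for Gm10718, 76.6% for Gm10722 and 74.7% for Gm10719. Gm11168 shared 66.0%, Gm26870 65.6%, Gm10717 48.0% and Gm21738 43.6%. The 2 models on chromosome 2 shared least, at 42.0% for Gm10800 and 35.8% for Gm10801. With 51-base words these fell to 26.7% and 16.3%. The read length of the protocol, 150 bases, is longer than any of these words. Between pairs the share of 31-base words ran from 5.06%, for words of Gm11168 found in Gm10801, to 72.4%, for words of Gm10721 found in Gm10717. Counted on the annotated strand alone, Gm26870 shared 0% and the other 9 between 35.8% and 89.3%. Only 3 other annotated gene models held any of these words, and they were Gm10720 with 94.4% of its words, Gm17535 with 93.3% and Gm10715 with 77.8%. All lie in the same chromosome 9 cluster and are not analysed here. Copies outside annotated transcripts were not searched.

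**Figure D3:**
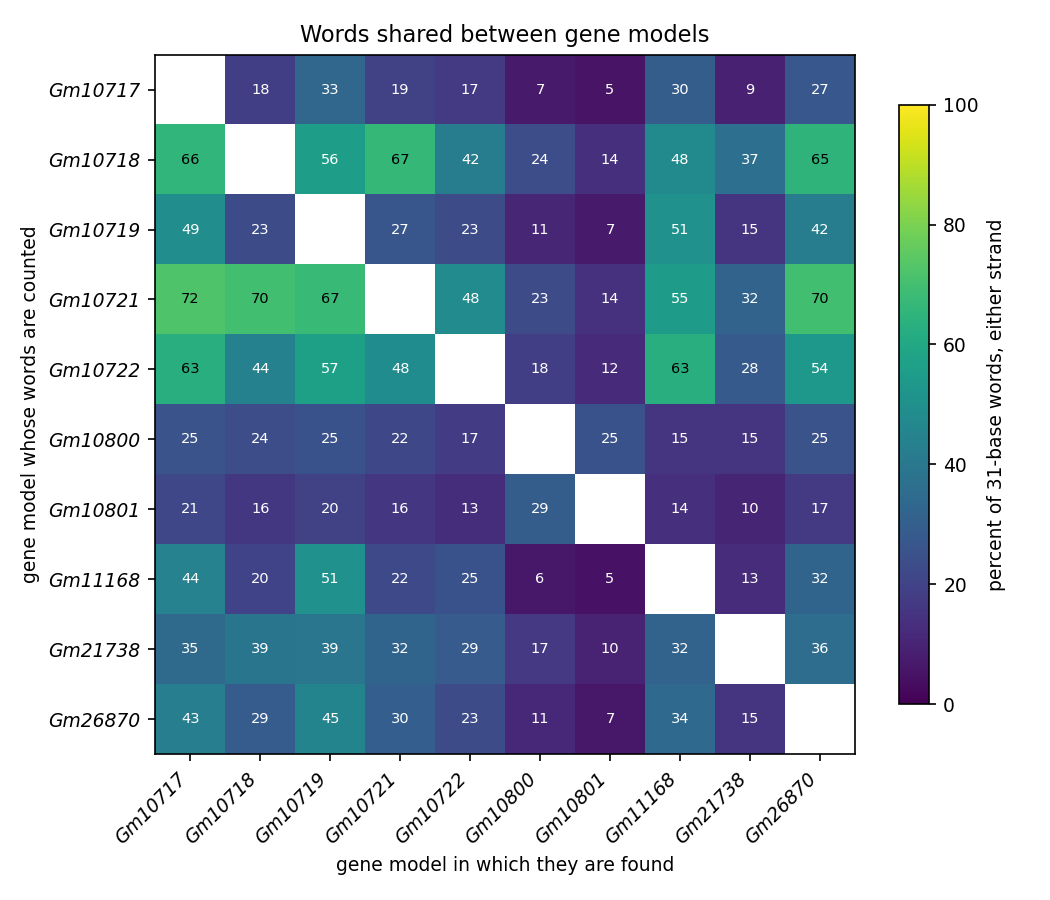
Each cell gives the percent of the 31-base words of the model in its row that occur in the model in its column, on either strand. Values are highest among the chromosome 9 models, up to 72.4%, and lowest toward Gm10801, down to 5.06%.

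Values are RPKM, which scales the reads of a model by its exonic length and by the library total, so that levels of models of different length can be set side by side. Whole-read steps in these values placed the library totals between 35153000 and 37668000 reads. At these totals the values of 9 models came to whole reads within 0.08 of a read in all 6 libraries, and those of Gm10800 within 0.35 of between 760 and 4501 reads. The totals were chosen for whole reads over rows of the same comparison, so this is no separate check of them. How reads that map to several places were treated is not given in the sources used here. The values below are therefore those of the repeat as assigned to each model, and the models are not independent measurements.

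All 10 models were higher in P-Por-Os than in control. The authors' test called 1.05 percent of 15270 genes tested as higher at their threshold, and since that call chose the models nothing is read from their number. Gm10800 had the highest level, at 185, 190 and 185 RPKM in the 3 P-Por-Os libraries against 30.6, 41.3 and 38.3 in control. The groups were far apart, with the lowest P-Por-Os library 4.47 times the highest control library. Its mean was 187 ± 2.80 RPKM against 36.7 ± 5.55 (SD, n = 3 each), a ratio of 5.08 that rests on 4390 to 4501 reads per P-Por-Os library and 760 to 987 per control library.

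Gm10801, its neighbour on chromosome 2, stood at 13.3, 14.2 and 17.3 RPKM in P-Por-Os against 2.58, 2.91 and 3.10 in control. Replicate 3 was the highest library in each group, and the groups did not overlap. The ratio of means was 5.21, close to that of Gm10800, although the level was lower by a factor of 10.7 to 14.2 in every library.

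On chromosome 9, Gm10718 was the plus-strand model with the highest level, at 25.9, 27.1 and 25.7 RPKM in P-Por-Os and 4.41, 5.85 and 4.55 in control. Its ratio of means, 5.32, was the largest of the 10, and that of Gm10717, 5.30, was next to it. Their order turned in the authors' log2 folds, at 2.284 for Gm10718 and 2.288 for Gm10717. It also turned without P-Por-Os replicate 1, at log2 ratios of 2.42 and 2.51. Gm10717 was at 1.78, 2.36 and 2.16 RPKM against 0.317, 0.409 and 0.465, the lowest control level of all. Its 9 transcripts and 3856 exonic bases make it the longest model, and its low RPKM still stood for 252 to 327 reads per P-Por-Os library.

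The other plus-strand models on chromosome 9 had somewhat smaller ratios of means. Gm11168 was at 1.72, 2.12 and 1.76 RPKM against 0.365, 0.468 and 0.451, a ratio of 4.36. Gm10721 was at 3.71, 3.75 and 3.70 RPKM against 0.595, 0.992 and 1.02, a ratio of 4.28. For Gm10721 the P-Por-Os libraries had 89 to 91 reads, and the control libraries had 15 to 24 reads, the fewest of any model. Gm10722 was at 6.54, 7.66 and 5.63 RPKM against 1.22, 2.04 and 1.44, a ratio of 4.22. Gm10719 was at 2.17, 2.27 and 2.15 RPKM against 0.398, 0.691 and 0.695, a ratio of 3.69. In none of these did a control library reach a P-Por-Os library.

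Gm26870, annotated on the other strand, was at 10.1, 10.6 and 9.83 RPKM in P-Por-Os and 1.72, 2.42 and 2.03 in control. Its ratio of means of 4.96 lay within the range of the 9 models on the opposite strand of the repeat, whose ratios ran from 3.58 to 5.32. Reads of the 6 plus-strand models on chromosome 9, summed, were 1.41, 1.51 and 1.48 times those of Gm26870 in P-Por-Os and 1.48, 1.48 and 1.58 times in control. The balance between models annotated on each strand of this cluster thus overlapped between the groups. Reads assigned to the plus-strand models were 4.81 times higher in P-Por-Os, and those assigned to Gm26870 4.96 times. The strand setting used in counting is not given, and 65.6% of the 31-base words of Gm26870 occur in the other models on the opposite strand. These values therefore do not show which strand was transcribed.

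Gm21738, the model on chromosome 14, had the smallest ratio of means, 3.58, a log2 ratio of 1.84 against 1.88 for Gm10719, the next. Without control replicate 1 the order of these models turned, at 1.83 and 1.66. It was at 24.5, 27.3 and 26.2 RPKM in P-Por-Os against 7.17, 8.20 and 6.43 in control. It was the only model for which control replicate 1 was not the lowest control library. In control it stood above Gm10718, at 7.27 ± 0.888 RPKM against 4.93 ± 0.793, with no overlap of libraries. In P-Por-Os the levels of these models overlapped, at 26.0 ± 1.42 and 26.2 ± 0.777 (SD, n = 3 each).

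**Figure D4:**
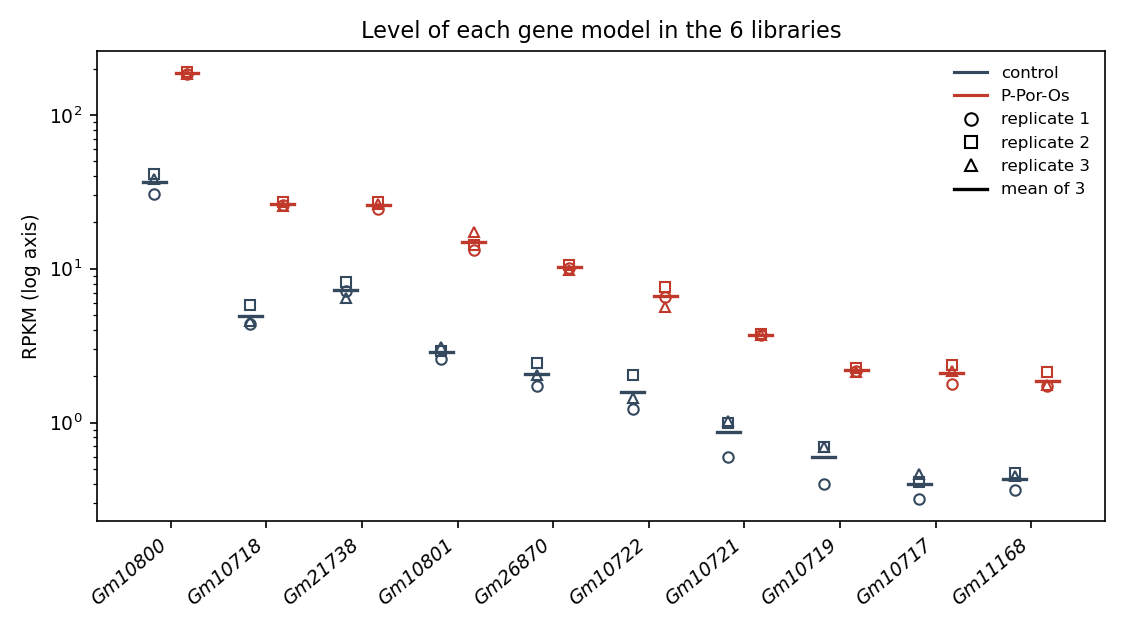
RPKM of each model on a log axis, with open symbols for the 3 libraries of each group and bars for their means. Every P-Por-Os library lies above every control library in all 10 models, and Gm10800 is highest in each group, at means of 187 and 36.7 RPKM.

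The lowest P-Por-Os value exceeded the highest control value for all 10 models, as it did for 99.4 percent of the 160 rows, which had been chosen for being higher. The median over the models of the log2 ratio of means was 2.22, with a range from 1.84 to 2.41. The log2 folds of the models in the authors' deposited table ran from 1.71 for Gm21738 to 2.29 for Gm10717, with a median of 2.09, against a median of 1.24 over the 160 rows. Of the 10, 6 had an authors' log2 fold of at least 2, and 5 were among the 10 highest folds. In all, 11 of the 160 rows (6.88 percent) had such a fold, these 6 included. The models share sequence and were chosen on this contrast, so nothing is read from these counts. The model nearest to the listing minimum of 1 was Gm21738 at 1.71, and rows of other genes reached down to 1.00. The adjusted p-values in the authors' deposited table ran from 4.2e-10 for Gm26870 to 7.0e-06 for Gm10721. They belong to the contrast that chose the models, so they give no separate support.

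Levels kept nearly the same order in both groups. In P-Por-Os the order by mean RPKM was Gm10800, Gm10718, Gm21738, Gm10801, Gm26870, Gm10722, Gm10721, Gm10719, Gm10717 and Gm11168. Neighbours in that order whose libraries overlapped were Gm10718 with Gm21738, Gm10719 with Gm10717, and Gm10717 with Gm11168. In control Gm21738 stood second, Gm11168 stood above Gm10717, and the other places were the same. The libraries of neighbours there overlapped for Gm26870 with Gm10722, Gm10721 with Gm10719, Gm10719 with Gm11168, and Gm11168 with Gm10717.

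Reads summed over the 10 models and scaled to the library total (RPM) came to 211, 223 and 214 RPM in P-Por-Os and 37.8, 50.5 and 45.3 in control. The means were 216 ± 6.00 and 44.5 ± 6.40 RPM (SD, n = 3 each), a ratio of 4.85, and the sum took 0.0211 to 0.0223 percent of a P-Por-Os library. Without Gm10800 the ratio was 4.58. In bulk libraries, more cells with such transcripts and more transcripts per cell cannot be told apart. By place, the ratio was 5.09 for the models on chromosome 2, 4.81 for the plus-strand and 4.96 for the minus-strand models on chromosome 9, and 3.58 for chromosome 14.

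**Figure D5:**
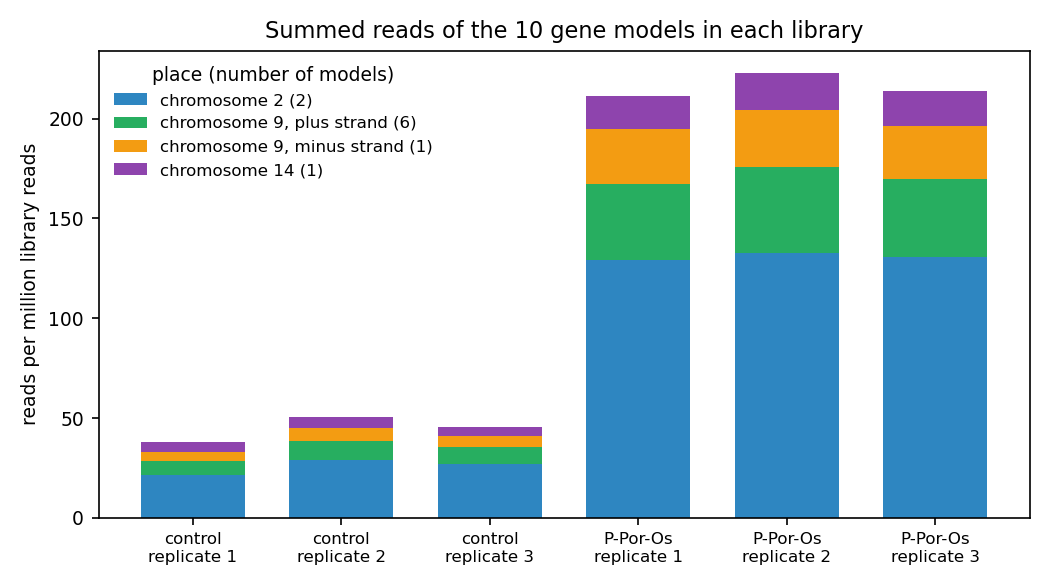
Bars give the sum over the 10 models, in RPM, in each of the 6 libraries, split by chromosome and strand. The P-Por-Os libraries stand between 211 and 223 and the control libraries between 37.8 and 50.5, and chromosome 2 makes up the largest part of each bar.

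Each model's part of the summed reads differed much less between the groups than the sum did. Gm10800 made up 56.2% to 57.9% of the reads in P-Por-Os and 53.4% to 55.8% in control. Gm21738 made up 7.89% to 8.35% in P-Por-Os and 9.67% to 12.9% in control. Gm10719 was also a smaller part in P-Por-Os, at 1.80% to 1.85% against 1.90% to 2.76%, and Gm10718 a larger one, at 8.16% to 8.34% against 6.85% to 7.94%. In these 4 models the parts did not overlap between the groups, and in the other 6 they did. Such parts have no background over other genes, so nothing is read from this count. Parts of one sum depend on each other, and these differences come from the contrast that chose the models, so they were not tested.

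The spread between libraries was smaller in P-Por-Os than in control for 9 of 10 models, Gm10801 being the exception. The share over the 160 rows was not counted, but controls also differed more elsewhere. In 129 rows outside these models and the histone genes, median log2 deviations from the group mean were 0.003, 0.011 and 0.010 in P-Por-Os. In control they were -0.19, 0.056 and 0.19, so this is not read as a trait of the models. The coefficient of variation (SD over mean) had a median of 4.74% in P-Por-Os, from 0.686% for Gm10721 to 15.3% for Gm10722. In control it had a median of 16.7%, from 9.23% for Gm10801 to 28.6% for Gm10719. Counting error alone, from each model's mean number of reads, would give at most 10.5% in P-Por-Os and 21.8% in control, for Gm10721 in each. The spread was larger than the counting error of the same model for 7 of 10 models in P-Por-Os, in Gm10800 by a negligible margin, and for 8 of 10 in control, where Gm10800 had 15.1% against 3.37%. Control replicate 1 was the lowest control library for 9 of 10 models, as it was for 68.8 percent of the 160 rows, at a median of -0.25 log2 units relative to the mean of the controls. Without it, the log2 ratio of the summed reads was 2.17, against 2.28 with all libraries.

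Other RNA with rows in the same table was higher as well, since all its rows were chosen for being higher in P-Por-Os. Replication-dependent histone genes, whose mRNAs end in a stem-loop in place of a poly(A) tail, had 21 rows by their symbols. Their summed level was 8011, 8618 and 7941 RPKM in P-Por-Os against 2465, 3391 and 3722 in control, a ratio of means of 2.57. Their authors' log2 folds ran from 1.02 to 1.59, all below the lowest of the repeat models, 1.71. Control replicate 1 was the lowest control library for 20 of the 21, at a median of -0.34 log2 units. The labels name both an mRNA library kit and a kit for depletion of ribosomal RNA and do not say which library was made with which. The part of these in the levels of the repeat models was not tested.

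Genes that act on pericentromeric repeats were looked up in the same table. None of 25 genes of pericentromeric heterochromatin, such as the methyltransferases Suv39h1 and Suv39h2, none of 9 centromere genes, none of 10 heat shock genes and none of 15 genes of double-stranded RNA sensing and interferon response had a row. Nor did any of 10 other RNAs without a poly(A) tail, of 6 nuclear long noncoding RNAs, or any small nucleolar RNA or host gene. Among the hepatocyte markers, 0 of 10 had a row, so the labelled cell line could not be checked. Of 3 fibroblast and 2 endothelial markers 0 had a row, and of 4 myeloid markers 1 had, the endotoxin co-receptor Cd14, with an authors' log2 fold of 1.39. The tables hold only genes selected for being higher, so a gene with no row has no value here. Of all genes tested 1.05 percent had a row, so lists of this size with none are near that background.

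Among the 160 rows, all chosen for being higher in P-Por-Os, the genes whose pattern over the 6 libraries was most like that of the repeat models were found by the root mean square difference of log2 RPKM, each centred on its control mean, from the mean of the 10 models. They were Ivl, which encodes the envelope protein involucrin, at 0.11, Pla2g4c, a phospholipase A2, at 0.15, Slc17a6, a vesicular glutamate transporter, at 0.19, Gm4962 at 0.22 and Ces2g, a carboxylesterase, at 0.28. The models themselves lay at 0.08 (Gm11168) to 0.29 (Gm21738) from their mean. Ivl was at 13.0, 14.8 and 14.1 RPKM in P-Por-Os against 2.69, 3.04 and 2.90 in control. The other 4 were below 1 RPKM in every library. These distances describe 6 libraries only, and they include the size of the fold, which was not scaled out. The named genes had authors' log2 folds from 1.76 for Ces2g to 2.15 for Ivl, against a median of 1.24 over the 160 rows. Likeness here therefore includes likeness of fold, and shared variation between libraries was not measured.

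With ultrasound added, no value of these models is at hand. The table of P-Por-Os with ultrasound against control lists 0.403 percent of 15142 genes tested and the table of P-Por-Os with ultrasound against P-Por-Os 0.179 percent of 15074, and 0 of the 10 models had a row in either. Both hold only genes that were higher with ultrasound, so an equal, lower or less clearly higher level would each leave a model out.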

How the data were processed

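RNA of 9 Hepa1-6 libraries in 3 groups of 3 was sequenced, and the 6 of P-Por-Os and control give the values here. The submitters' processing notes name fastp 0.23.4, featureCounts of Subread 1.5.1, edgeR 3.12.1 and GRCm38. Not given in the sources used here are the aligner, the annotation, and the strand and multi-mapping settings. The authors deposited RPKM per library. Log2 folds, an F score, p-values and their adjusted values are the authors' own, per the file headers.

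Exonic lengths and transcript sequences came from GENCODE M21. Library totals were taken as those at which RPKM times length gave the largest share of whole reads (within 0.05, under 400 reads), 88.4 to 92.1 percent against 9.24 to 9.89 percent at other totals. The number of genes tested came from whole ranks (p over adjusted p, within 0.01), which held for 72.5 percent of the 160 rows. Both steps were tested on simulated data. Python 3.11.15 with Biopython 1.88 was used.

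The models and gene lists were chosen with earlier results of these data known. The text names all 10 models and the 5 other genes of most like pattern. No test was run on the models, since the same libraries had chosen them. RPKM values are not counts, and no count test was run. With 3 libraries against 3, an exact two-sided permutation test could not go below 0.1.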

Additional observations from a re-analysis of the deposited data

How the results depend on the processing

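With a pseudocount of 1, which lowers the ratios of low models by construction, the median log2 ratio of the 10 models went from 2.22 to 1.64. The lowest ratio was 1.84, of Gm21738, without a pseudocount and 1.00, of Gm10719, with it, where Gm21738 was at 1.71. With a pseudocount of 0.1 Gm10719 was also the lower of these models, at 1.72 against 1.83. Leaving out each library gave medians of 2.11 to 2.35, a lowest ratio of 1.66 to 1.94 and log2 ratios of the summed reads of 2.17 to 2.38, the smallest of each without control replicate 1. All 10 models kept a ratio of at least 2 and groups that did not overlap in each of these. With 1 model for each group that shares words, 1 model (Gm10800) was left for each of these counts. Of 110 alternative log2 ratios of single models, 110 were at least 1 and 10 moved by more than the spread between libraries, 8 of them with a pseudocount of 1. The direction was fixed by the choice of the models, so this is no sign of stability. The median share of words found in other models, 65.8%, became 74.9% with 21-base words, 54.5% with 51-base words and 53.0% on the annotated strand alone. The commonest best distance of self-match, 234 bases, became 415 when distances up to 1000 were allowed, where as few as 100 bases were compared. Leaving out Gm10800 or Gm26870, and the alternatives for the summed reads, were chosen after the data were seen.

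Replicate numbers recur in each group, but P-Por-Os and control libraries of equal number did not deviate from their group means together over the 160 rows (r of 0.0011, 0.16 and -0.025), and 1 of 3 P-Por-Os libraries correlated best with its own number. With a replicate block, as log2 ratios within numbers, the median was 2.23 and the lowest ratio 1.85. That 10 of 10 models were higher in every pair follows from groups that do not overlap, and adds nothing to it.

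Depth limits Gm10721 most, with 15 to 24 reads per control library.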
